A study of Drosophila melanogaster with 8 samples.

Results

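Cytosolic ribosomal protein genes encode the proteins of the large and small subunits of the ribosome, the machine that translates messenger RNA in the cytoplasm. The members described here were all genes whose FlyBase symbol begins with RpL (large subunit) or RpS (small subunit), together with sta, which encodes the small subunit protein known in other species as SA. This rule found 85 genes among the 11773 gene identifiers of each library, 50 of the large and 35 of the small subunit. The gene name table holds 93 symbols of this kind, and the other 8, RpS10b among them, were not analysed here. The rule reads gene symbols and no measured value.

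The values come from a study of how the fly senses dietary amino acids. RNA sequencing gave 8 libraries of Dh44 neurons, brain neurons that make the peptide diuretic hormone 44, and the libraries are numbered here as in their titles. All 8 belong to the same group: adult Drosophila melanogaster of 5 days on normal food, genotype DH44-GAL4;UAS-mCD8gfp, in which a Dh44 driver line switches on a membrane-bound green fluorescent protein. The labels name no animal for any library and do not settle whether a library holds 1 cell or pooled cells, so no test between groups was possible and every spread is that between libraries. The unit is FPKM, a fragment measure divided by exon length and by the mapped fragments of the library, so levels of different genes can be set side by side per length.

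An assembled ribosome holds each core protein once, except for the acidic stalk proteins, of which it holds several copies. In the fly most ribosomal protein genes are haploinsufficient: loss of a copy gives the Minute phenotype of slow growth and short bristles. Some proteins are encoded by paralogs, of which a copy is often restricted to the germline. Transcription of ribosomal protein genes starts at a pyrimidine-rich initiator shared by genes of translation factors, and their messages are translated under control of the TOR pathway.

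Summed FPKM per library ranged from 812029 to 935440, and read depth is unknown, so no counting interval is given. Genes at 1 FPKM or more numbered 2518 in library 1, 3798 in library 8 and 4094 to 5256 in the other 6. Dh44 lay between 26309 and 99818 FPKM. Of the marker lists, all 6 neuronal genes measured reached 1 FPKM in at least 4 libraries, against 4 of 5 for fat body, 2 of 4 for glia, 2 of 4 for muscle, 3 of 3 for hemocytes, 1 of 6 for testis and male germline and 2 of 4 for female germline. The summed FPKM of a list over the libraries ran from 379 to 1714 for neurons, 14216 to 68395 for fat body, 41.7 to 311 for glia, 7.46 to 80.4 for muscle and 16.8 to 278 for hemocytes. For the testis list the sum was 4.56 to 110.3 FPKM and for the female germline list 0.235 to 75.5 FPKM. The neuronal gene elav was low in libraries 1, 3 and 8 (1.11, 1.40 and 0.82 FPKM), and the glial gene repo was listed at 0 in 4 libraries. Of the 6 testis genes, can, sa and aly were listed at 0 in all 8 libraries, bol lay between 4.56 and 73.7 FPKM, Mst87F reached 37.0 FPKM in library 3 and 1.48 FPKM in library 5, and dj reached 28.7 FPKM in library 4; the last 2 were listed at 0 elsewhere. Libraries 8 and 1 had the highest fat body sums, 68395 and 56796 FPKM, and the lowest neuronal medians, 62.95 and 101.6 FPKM.

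Most ribosomal protein genes were among the most abundant genes of these libraries. Fat body genes summed to 14216 to 68395 FPKM per library, and the part of other cells in the ribosomal protein levels was not tested. Of the 85 members, 78 reached 1 FPKM in at least 4 libraries (91.8%), where 41.2% of all 11773 genes did so. In all 8 libraries 76 members reached it (89.4%), against 11.0% of all genes. At 100 FPKM or more in all 8 libraries there were 74 members (87.1%), against 2.40% of all genes. These 74, called the core set below, made up 26.2% of all 282 genes at that level. The limit of 100 FPKM was set after the values were seen. The gene just inside it was RpL34a, with a median of 325 FPKM and a lowest value of 104.4 FPKM in library 6, and the gene just outside it was RpL7-like, with a median of 67.3 FPKM and a highest value of 139 FPKM.

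The median over members of the median FPKM was 1601, against 0 FPKM over all genes and 19.7 FPKM over the 4846 genes at 1 FPKM or more in at least 4 libraries. Of the 50 genes with the highest medians 27 were members, of the first 100 there were 54, and of the first 200 there were 72. The members held a median of 20.03% of the summed FPKM of a library, from 17.95% in library 4 to 22.7% in library 1 and 25.5% in library 8. Without library 8 the median share was 19.7%. All 8 libraries held between 77 and 78 members at 1 FPKM or more, library 1 included, which had the fewest genes of all kinds. Leaving the 10 most abundant other genes of each library out of the sum raised the median share to 27.7%.

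**Figure D1:**
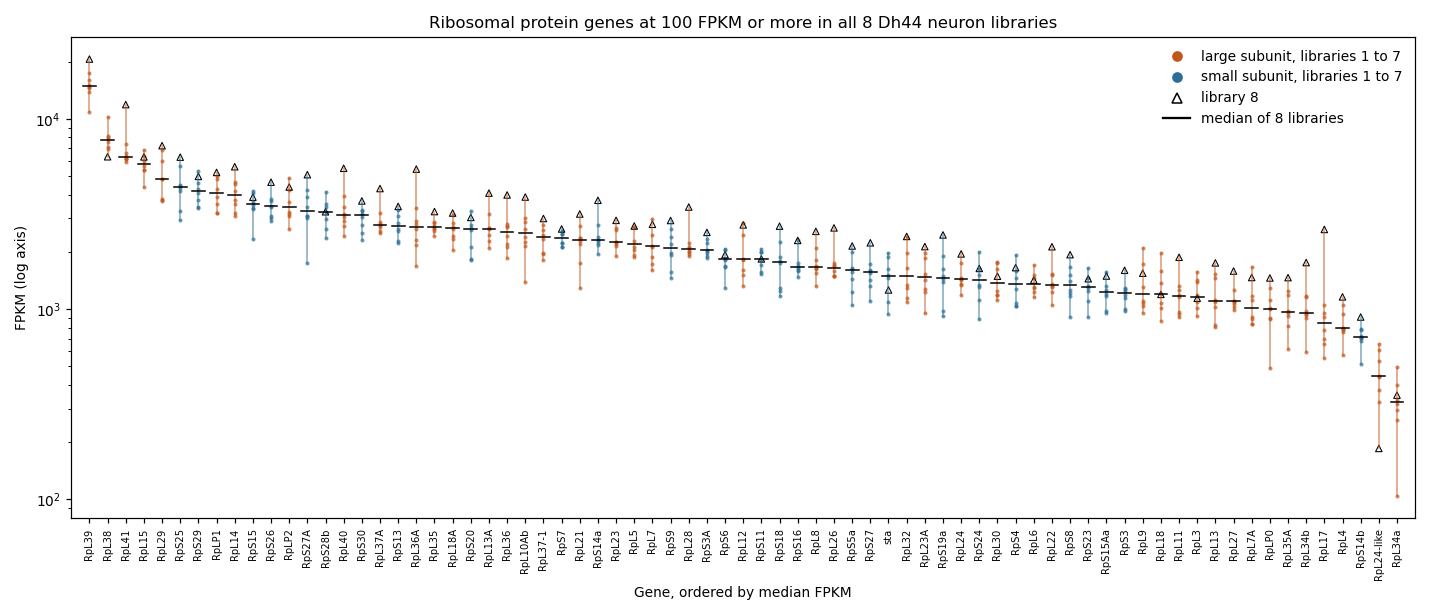
FPKM (log axis) of the ribosomal protein genes at 100 FPKM or more in all 8 libraries, ordered by median, with 1 of the 74 not drawn. Points are libraries 1 to 7, coloured by subunit, open triangles are library 8, vertical lines span the range and short bars mark the median; RpL39 stands alone at the top with 14948 FPKM, most genes have medians between 1000 and 3000 FPKM, and library 8 is the highest point of most genes.

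Within the core set the levels lay close together. Their medians ran from 325 to 14948 FPKM, but the middle of the set was narrow, with a lower quartile of 1316 and an upper quartile of 2712 FPKM. Of the 74 genes, 51 had medians between 1000 and 3000 FPKM and 4 had medians of 5000 FPKM or more. The median of the medians was 1827 FPKM for the 45 large subunit genes (325 to 14948) and 1826 FPKM for the 29 small subunit genes (714 to 4372), a difference that was not tested. Within a library the ratio of these subunit medians had a median of 1.05 and ranged from 0.911 in library 6 to 1.16 in library 5. It was above 1 in 5 libraries and below 1 in 3, so no subunit was the higher in every library.

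The top of the order was held by genes of the large subunit. RpL39, a very small protein that lines the exit tunnel through which the new peptide leaves the ribosome, ranged from 10822 to 20635 FPKM around its median of 14948. It was the highest member in all 8 libraries, and its range did not overlap that of any other member except RpL41. Its gene (FBgn0023170) is on the minus strand of chromosome 2R, between 24061853 and 24062431. RpL12, on the opposite strand, ends at 24061860, so the exons of the 2 genes overlap only at their ends. Only reads within that short stretch cannot be separated without strand.

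RpL38, a component of the large subunit whose loss in the mouse alters body patterning, had a median of 7704 FPKM and a range of 6325 to 10285. RpL41, the smallest ribosomal protein, had a median of 6314 FPKM and a range of 5940 to 11891. RpL38 was second in 6 libraries and RpL41 in the other 2, and their ranges overlapped. RpL15, an essential protein that binds 28S ribosomal RNA, followed with a median of 5803 FPKM (4376 to 6882). RpL29 followed with 4813 FPKM (3719 to 7232); its exons overlap those of CG9752 on the opposite strand. The small subunit was led by RpS25 with a median of 4372 FPKM (2935 to 6295), named after its value was seen, a protein that viral internal ribosome entry sites need in yeast and mammalian cells.

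The lowest members outside paralog pairs that were above 0 also belonged to the large subunit. RpL4, which lines the exit tunnel with RpL17 and RpL39, had a median of 791 FPKM (573 to 1160). RpL17 had a median of 841 FPKM (553 to 2623), RpL35A of 963 FPKM (615 to 1464) and RpL7A of 1012 FPKM (835 to 1672). The lowest of all members outside the measured pairs, RpS10a, was listed at 0 in all 8 libraries; its paralog RpS10b was not analysed here.

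Levels went only loosely with exon length, taken here as the merged exons of all annotated transcripts of a gene. The 3 core genes with exons under 500 bp were RpL39, RpL41 and RpL29, at medians of 14948, 6314 and 4813 FPKM. The 16 genes with exons of 500 to 700 bp had a median of 2600 FPKM (325 to 3961), and the 55 genes of 700 bp or more had a median of 1646 FPKM (443 to 7704). Across the 74 genes Spearman's rho between exon length and median FPKM was -0.31, and it was -0.22 over the 71 genes with exons of 500 bp or more. These points share their libraries and the annotation from which length was taken, and FPKM itself is divided by length, so the coefficients are descriptions only. By this measure no member had exons below the fragment length of about 250 bp, under which FPKM can become extreme. RpL39 (288 bp) and RpL41 (320 bp) came close to it. An expressed message can be shorter than the merged exons, and the length used by the authors is not known here.

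**Figure D2:**
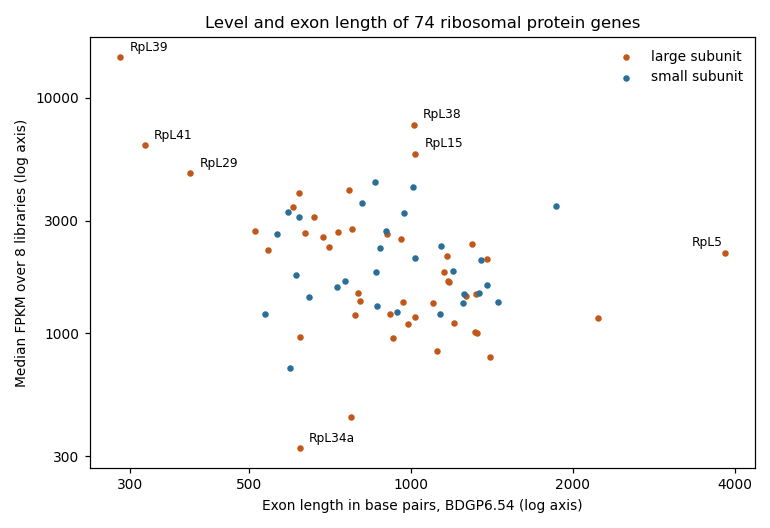
Median FPKM over 8 libraries (log axis) against exon length in base pairs (log axis) for the 74 core genes, coloured by subunit. RpL39, RpL41 and RpL29 are the shortest and among the 5 highest, whereas RpL38 and RpL15 are also among them with merged exons of 1013 and 1018 bp.

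Of the members with known special roles, RpS6, RpL32 and sta lay between the quartiles of the core set and RpS3 lay below them. RpS6, the substrate of S6 kinase downstream of TOR, had a median of 1830 FPKM (1294 to 2062); its exons overlap those of CR33222 and a small nucleolar RNA on the same strand. RpS3, a small subunit protein at the messenger RNA entry channel with a further role in DNA repair, had a median of 1212 FPKM (981 to 1600). RpL32, widely used as a reference gene in fly expression work under the name rp49, had a median of 1485 FPKM. Its lowest value was 1087 FPKM (library 6) and its highest 2410 FPKM (library 8), a fold of 2.22, with an SD of 0.46 on the log2 scale. In 8 libraries RpL32 therefore varied more than the median core gene, whose SD was 0.30. The values of sta, whose product is related to the laminin receptor, were 941 to 1980 FPKM around a median of 1487.

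The acidic stalk recruits the elongation factors to the ribosome. RpLP1 and RpLP2, whose products form the dimers of the stalk, had medians of 4081 FPKM (3204 to 5232) and 3435 FPKM (2650 to 4914). RpLP0, the base on which they sit, had a median of 1006 FPKM (489 to 1458). RpLP1 and RpLP2 each exceeded RpLP0 in all 8 libraries, since their lowest values lay above its highest. RpL40 and RpS27A encode a ribosomal protein fused to ubiquitin, and their medians were 3115 FPKM (2428 to 5500) and 3278 FPKM (1741 to 5091). RpS27A shares exon sequence with Ip259 on the same strand, which makes its value uncertain.

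In the pairs of related genes, which were formed by symbol alone, a single copy carried most of the signal. In all 13 pairs the same copy was the higher in all 8 libraries. The lower copy was listed at 0 throughout in 6 pairs, held a median of under 5% of the pair's FPKM in 4 more, and over 20% in 3. The 4 include RpL7-like and RpLP0-like and the 3 include RpL24-like. These are relatives of yeast assembly factors, so their pairs may not join copies of the same ribosomal protein. Over all 11773 genes, 30.1% were listed at 0 in all 8 libraries, and 7 of the 85 members (8.24%) were: RpL10Aa, RpL22-like, RpL37-2, RpS10a, RpS19b, RpS28a and RpS28-like. A value of 0 in these files can be a failed estimate and does not show absence.

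**Figure D3:**
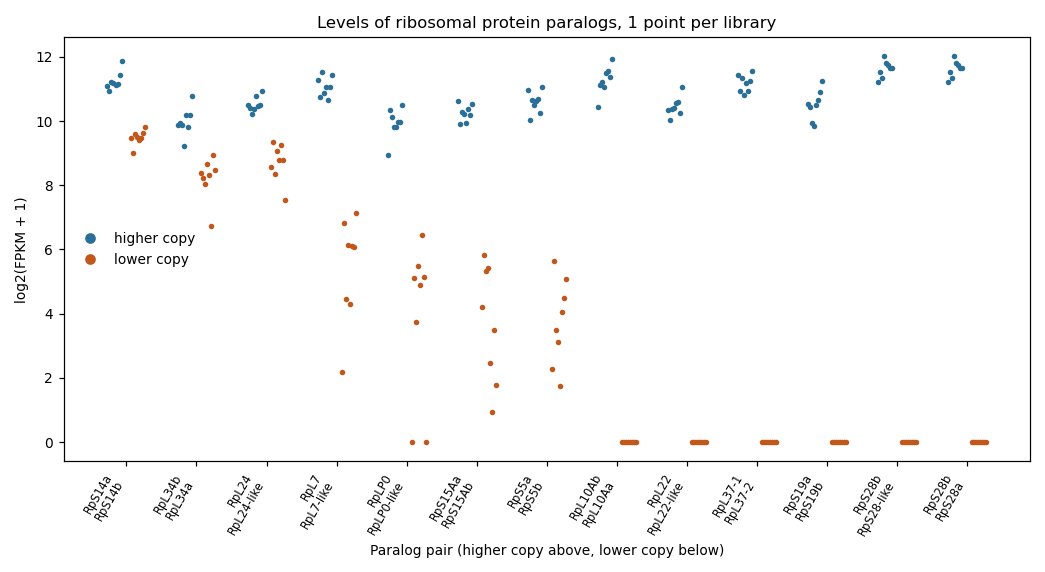
Level as log2(FPKM + 1) of both copies of 13 ribosomal protein paralog pairs, with 1 point for each of 8 libraries, in order of library number within a copy. The lower copies of RpS14a, RpL34b and RpL24 lie within a few log2 units of their partners, 4 lower copies scatter between 0 and about 7, and the lower copies of the last 6 pairs are at 0 in all libraries.

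The 6 pairs with a lower copy listed at 0 had higher copies at the usual level of the core set. RpL22 was at 1049.95 to 2128 FPKM (median 1341), whereas RpL22-like, known from the testis, was listed at 0. RpS19a was at 918 to 2455 FPKM (median 1465), whereas RpS19b, known from the germline, was listed at 0. RpL10Ab was at 1389 to 3884 FPKM (median 2516), RpL37-1 at 1807 to 2994 FPKM (median 2393) and RpS28b at 2379.7 to 4135 FPKM (median 3247). RpS28b is the higher copy of both RpS28a and RpS28-like. Of the 6 testis genes, can, sa and aly were also listed at 0 in all 8 libraries, whereas bol was at 1 FPKM or more in all 8, and Mst87F and dj were above 0 in 2 and 1.

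A trace of the lower copy was listed in 4 pairs. RpS5b, known from the ovary, ranged from 2.32 to 48.4 FPKM (median 12.9), against 1048 to 2147 FPKM (median 1601) for RpS5a. RpS15Ab ranged from 0.917 to 55.6 FPKM (median 13.8), against 955 to 1576 FPKM (median 1229) for RpS15Aa. The share of the lower copy had a median of 0.782% for RpS5b and 0.978% for RpS15Ab. These shares were uneven, from 0.148% to 4.42% for RpS5b and from 0.0693% to 5.50% for RpS15Ab, and both were highest in library 2. No sequence comparison of the copies was made, and reads that fit both could be given to either, so these low values are uncertain. The female germline gene vas, beside them, ranged from listed at 0 to 61.8 FPKM, and osk and bam were listed at 0 in 6 and 7 libraries.

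The other 2 traces belong to genes that are ribosome assembly factors by their relatives in yeast. RpL7-like, related to yeast Rlp7, had its lowest value in library 1 (3.51 FPKM) and its highest in library 8 (139 FPKM), with a median of 67.3, or 3.28% of the sum with RpL7 (median 2139 FPKM, 1601 to 2978). Its exons overlap those of CG34164 on the same strand. RpLP0-like, related to yeast Mrt4, was listed at 0 in libraries 1 and 8 and lay between 12.5 and 87.4 FPKM in the other 6 libraries, with an exon overlap with Jra on the opposite strand.

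In 3 pairs both copies were abundant. RpS14a and RpS14b, a tandem duplication whose copies encode the same protein, had medians of 2313 FPKM (1949 to 3733) and 714 FPKM (516 to 909). RpS14a (FBgn0004403) lies on chromosome X from 7933742 to 7934677 and RpS14b (FBgn0004404) from 7934898 to 7935792, both on the plus strand and 220 bp apart. The share of RpS14b was nearly constant, at a median of 23.4% and a range of 19.6% to 24.6%. Because the copies are almost identical, the authors' processing could split their reads, and the level of each copy is uncertain while their sum is less so.

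The share of RpL34a was similar in size but not in constancy. RpL34a had a median of 325 FPKM, from 104.4 in library 6 to 495 in library 7, and RpL34b had 958 FPKM (594 to 1757). The share of RpL34a had a median of 22.5% and ran from 10.4% in library 6 to 40.3% in library 4. RpL24-like is related to yeast Rlp24, an assembly factor that holds the place of the ribosomal protein in the immature particle. Its median was 443 FPKM (185 to 656), the highest of the 3 assembly factor relatives, against 1433 FPKM (1192 to 1951) for RpL24. Its share of the pair had a median of 22.5% and ranged from 8.67% in library 8 to 32.7% in library 2. RpL34a and RpL24-like were the 2 lowest genes of the core set by median. The exons of RpL24-like overlap those of Dtd on the opposite strand.

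The higher and lower copies differed in their chromosomes, a property that the rule did not use. Of 12 distinct higher copies 7 lay on chromosome X (RpL22, RpL37-1, RpS14a, RpS15Aa, RpS19a, RpS28b and RpS5a), whereas of the 13 lower copies only RpS14b did. Of the 59 core genes in no pair 6 lay on X. Of all 85 members 14 (16.5%) lay on X, and of the 11646 gene identifiers with an annotated chromosome 16.1% did. In the annotation, exons of 4 lower copies (RpL10Aa, RpL37-2, RpS15Ab and RpS28a) form a single block without an intron, and no higher copy has this structure.

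Ribosomal protein genes varied little from library to library. For a core gene the highest library was a median of 1.91 times the lowest, with a range over genes from 1.25 to 4.74. The fold was under 2 for 41 genes, between 2 and 3 for 28 and over 3 for 5. The SD of log2(FPKM + 1) over the 8 libraries had a median of 0.30 over the core set (0.13 to 0.69). Among the 164 other genes within the core set's range of mean level that were also at 100 FPKM or more in all 8 libraries, the median SD was 0.75, and 3 of them lay below the core median. Of the 50 genes with the lowest SD among all 282 genes at that level, 41 were members.

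The steadiest members were RpS7, RpL35 and RpS3A. RpS7, a protein of the small subunit, lay between 2111 and 2639 FPKM around a median of 2354, with an SD of 0.13. RpL35, which sits at the mouth of the exit tunnel, lay between 2411 and 3258 FPKM around a median of 2695, also with an SD of 0.13. RpS3A lay between 1855 and 2532 FPKM around a median of 2038, with an SD of 0.15. Their highest library was 1.25, 1.35 and 1.36 times the lowest. Among members whose log2(FPKM + 1) averaged at least 3, the most variable were RpLP0-like (SD 2.49), RpS15Ab (1.82) and RpL7-like (1.65), all lower copies of a pair. In the core set the largest SD belonged to RpL17 (0.69) and RpL34a (0.67).

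**Figure D4:**
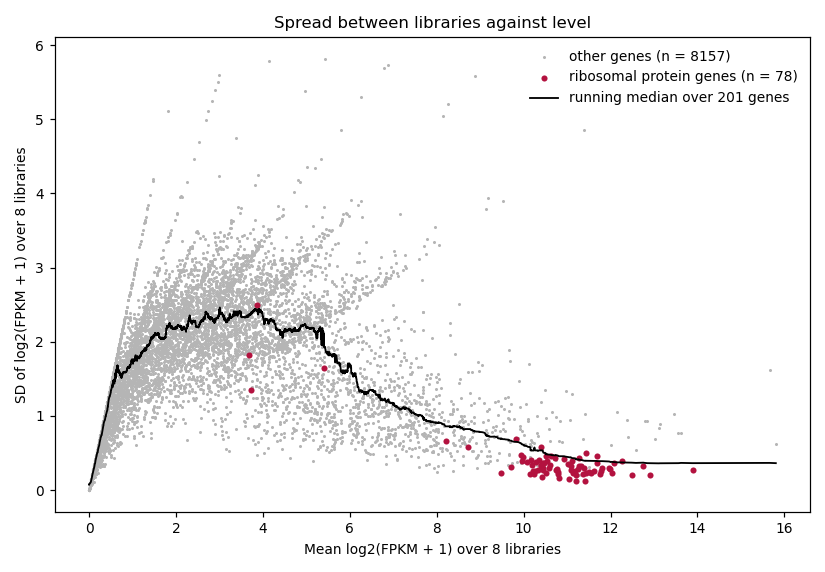
SD of log2(FPKM + 1) over 8 libraries against its mean for each gene above 0 in some library, with 78 ribosomal protein genes in red, other genes in grey and a running median along the mean in black. Most red points lie at means of about 10 to 13 and below the line, and the 4 red points at means under 6 are RpL7-like, RpLP0-like, RpS15Ab and RpS5b.

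Set against genes of similar level, 71 of the 78 members above 0 in some library had an SD below a running median taken along the mean level, where 47.1% of all genes did. The median difference from that running median was -0.17 log2 units for the members and 0.01 for all genes. Members are themselves a large part of the genes at this level, so the running median is partly their own. When it was taken over other genes only, an alternative chosen after seeing the data, the median difference was -0.50. It was -0.082 after scaling each library to the median of genes at 1 FPKM or more in all 8, and -0.10 without libraries 1 and 8.

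The order of levels within the core set was also shared between libraries. Over the 28 pairs of libraries, Spearman's rho across the 74 genes had a median of 0.89 (0.79 to 0.94). Across the 164 other genes at 100 FPKM or more in the same range of mean level it had a median of 0.66 (0.37 to 0.85). Both coefficients are across genes, which are not independent replicates, and part of what the libraries share is gene length and annotation.

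Library 8 stood apart by higher ribosomal protein values. There 69 of the 74 core genes (93.2%) were above their own median in the other 7 libraries, whereas 37.8% of 1224 other genes at 1 FPKM or more in all 8 libraries were. The median deviation in library 8 was 0.48 on the log2 scale for the core set and -0.57 for those other genes. The median FPKM of the core set was 2631 in library 8 and 1674 to 2022 in the other 7. In the same library the fat body sum was at its highest, 68395 FPKM, and the neuronal median at its lowest, 62.95 FPKM; the part of these in the ribosomal protein values was not tested. In such libraries a different mix of cells and a different amount of ribosomal protein RNA per cell cannot be told apart.

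**Figure D5:**
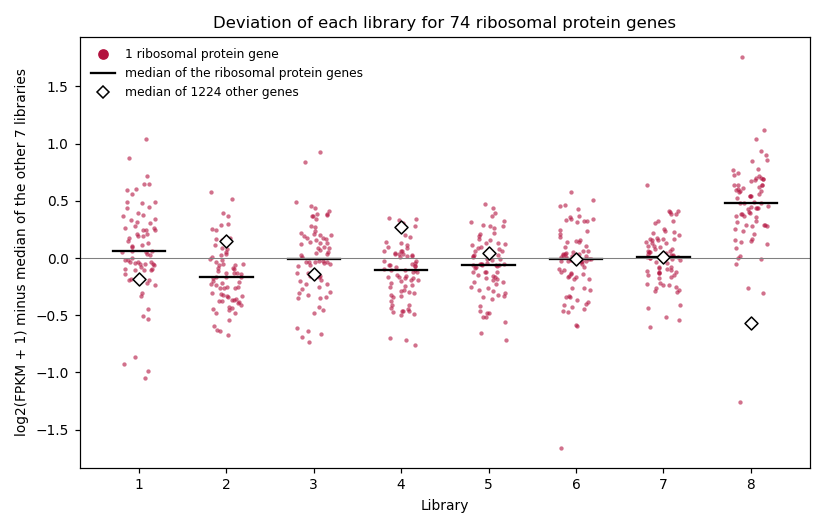
Deviation of log2(FPKM + 1) in each library from the median of the other 7, with 1 red point per core gene, a bar at their median and a diamond at the median of 1224 other genes. In library 8 the bar is at 0.48 and the diamond at -0.57, and in libraries 1 to 7 the bar lies between -0.17 and 0.06.

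The difference in library 8 was uneven over genes. RpL17 deviated most, by 1.76 log2 units, with 2623 FPKM there and 553 to 1047 FPKM in the other 7 libraries. RpL36A (1.04) and RpL41 (0.93) were also among the genes that deviated most, named with the next genes after their values were seen. The genes that were not higher in library 8 were RpL24-like (-1.26), RpL38 (-0.31), sta (-0.27), RpL3 (-0.05) and RpL18 (-0.01). RpL24-like was thus at its lowest, 185 FPKM, in the library in which RpL24 was at its highest, 1951 FPKM.

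Library 1, with the fewest genes at 1 FPKM or more and a fat body sum of 56796 FPKM, differed in the same direction but less. The median deviation there was 0.06 for the core genes and -0.19 for the other genes, a difference of 0.25, against 1.05 in library 8. The part of other cells in this was not tested. In library 1, 42 of 74 core genes were above their median elsewhere (56.8%), against 45.8% of other genes. Single members of library 1 deviated more, however, with RpLP0 at -1.05 (489 FPKM), RpS27A at -0.99 (1741 FPKM) and RpL10Ab at -0.92 (1389 FPKM). RpL7A, at 0.88 (1672 FPKM), was among those above their other libraries. In library 6, RpL34a was the farthest from the rest at -1.66. In libraries 2 and 4, 54 and 49 of 74 core genes were below their median elsewhere. There 27.0% and 33.8% of core genes were above it, against 56.9% and 62.4% of the other genes.

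Other genes of translation were detected as well, and those measured had a lower median level than the core set. Of 12 genes listed for elongation and ribosome association 6 were measured, all at 1 FPKM or more in all 8 libraries; the median over these genes was 633 FPKM. Tctp, a growth-related protein, had a median of 1408 FPKM (1124 to 1860), and Rack1, a scaffold bound to the small subunit, 1371 FPKM (903 to 1596). Both medians lay between the quartiles of the core set, 1316 and 2712 FPKM. The poly(A)-binding protein gene pAbp followed at 683 FPKM (289 to 813), Nacalpha of the nascent chain complex at 583 FPKM (444 to 913) and bic, its partner, at 152 FPKM (68.0 to 237). In library 8 the list's median deviation was 0.12, next to 0.48 for the core ribosomal protein genes.

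Genes that build ribosomes were lower than those that make up the ribosome. Of 24 listed biogenesis genes 14 were measured and 10 reached 1 FPKM in at least 4 libraries, with a median over the list of 8.22 FPKM. The highest was Tif-IA, which directs RNA polymerase I to the ribosomal RNA genes, at a median of 49.9 FPKM (1.37 to 85.9). NHP2, a protein of the pseudouridylation particles, had a median of 25.9 FPKM and was listed at 0 in 2 libraries. Nop60B, the pseudouridine synthase, had 22.0 FPKM (8.52 to 68.7).

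The mitochondrial ribosome has its own set of nuclear-encoded proteins. Of 69 measured, 58 reached 1 FPKM in at least 4 libraries and 5 in all 8, with a median of 24.96 FPKM, against 1601 FPKM for the cytosolic members. In library 8 their median deviation was -2.06, against -0.57 for the 1224 other genes and 0.48 for the core cytosolic set. In library 1 it was -3.73, against -0.19 and 0.06. Many mitochondrial members were listed at 0 in these libraries, which lowers such a deviation, and the differences were not tested. The 1224 genes were chosen for 1 FPKM or more in all 8 libraries and the core set for 100 FPKM or more. The mitochondrial genes were not filtered, so these sets are unlike. Of the 69 mitochondrial members, 14 (20.3%) had an SD below the running median, where 47.1% of all genes did. The steadiest of the 5 highest, mRpS25, lay between 82.5 and 170 FPKM.

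Of 9 listed regulators of ribosomal protein genes and messages 5 were measured, and all 5 reached 1 FPKM in at least 4 libraries. Xrp1, a transcription factor that acts in cells short of ribosomal proteins, had a median of 236 FPKM, from 92.4 in library 1 to 418 in library 2. Thor, the translational repressor 4E-BP, varied between 4.81 FPKM (library 1) and 566 FPKM (library 8), and S6k from 17.9 to 83.3 FPKM. Trf2, a factor that initiates transcription at the pyrimidine-rich initiator, had a median of 5.64 FPKM, and Dref, a promoter-binding factor of growth genes, 4.66 FPKM. Dref was listed at 0 in 3 libraries, among them library 1, where Trf2 was listed at 0 too. Library 1 had the fewest genes at 1 FPKM or more, and a value of 0 does not show absence.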

How the data were processed

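RNA was sequenced in 8 libraries of fluorescent Dh44 neurons. Per the labels' protocols, amplified cDNA was sheared to about 250 bp and amplified by 12 PCR cycles; reads were trimmed and mapped to the fly genome, and the authors deposited FPKM per gene and library. TopHat was among the tools, per the submitters' processing notes. Version, build, annotation, FPKM program and strand use are not given in the sources here. Depth is unknown.

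Of 11773 identifiers, 11646 matched a symbol. Exon lengths, overlaps and coordinates come from Ensembl release 115 (BDGP6.54), which may differ from the authors' build. Levels are medians over libraries, and spreads are SDs of log2(FPKM + 1), set against a running median over 201 genes ordered by mean. The spread measure was tested on simulated data in which genes of lower spread were drawn at random from all levels. Members crowd at high levels instead, so that test does not cover their own part in the running median. No test was run: all libraries form 1 group, and libraries may share animals. Members, lists, named genes and alternatives were chosen with earlier results of these data known. Named were all paralogs, the 5 highest and 5 lowest unpaired members, the 3 largest and 3 smallest SDs among members at a mean of 3 or more, and members of known role. Up to 5 genes a list were eligible, and all regulators. Values of 1 member enter the counts and medians but are not reported here by name. Python 3.11.15, numpy 2.4.6, pandas 2.3.3 and matplotlib 3.10.9 were used.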

Additional observations from a re-analysis of the deposited data

Results flagged for a closer look

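In 67 items (named genes, shares of the lower paralog, and library measures) either extreme of the 8 libraries was set against its neighbour. A gap above Dixon's 95% critical value was found in 7. Chance flags about 1 in 20 groups, and FPKM is skewed towards high values. Of the 7, 5 were in library 8, where RpL17 was at 2623 FPKM (median of the other 7 libraries 775), RpL41 at 11891 FPKM (6231), RpS14a at 3733 FPKM (2306) and RpL22 at 2128 FPKM (1324). The median FPKM of core members was 2631 there, against 1784 in the other libraries. The fat body sum was highest and the neuronal median lowest in the same library, and their part in these values was not tested. In library 5, RpL38 was at 10285 FPKM (7582 in the others). In library 2 the share of RpS5b was 4.42% (0.626% in the others).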

How the results depend on the processing

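For 8 main results 48 alternatives were computed, and for 46 single genes and pairs 184. The difference in spread stayed negative in each of its alternatives. The ratio of the subunit medians ran from 1.008 to 1.06 over its alternatives. The other results are levels, shares and counts, which have no sign that could reverse. Of the 48, 40 stayed within a set limit, which was the spread between libraries or, for counts, 1.5 times. For the difference in spread the limit was 0.018, the SD over values with 1 library left out at a time. The number of members detected was 78 in each alternative but 1, and 76 when all 8 libraries were required; 10 lower paralogs stayed under 5% throughout. The 74 core genes became 72 at 200 FPKM. Leaving the 10 most abundant other genes out of the sum gave a share of 27.7%. Rescaling over genes with exons of 250 bp or more, which also drops identifiers without annotation, gave a median level of 2015, and moved all 20 single genes that moved. The difference in spread from the running median, -0.17, was -0.13 without library 8, -0.15 without library 1 and -0.10 without both. It was -0.13 after that rescaling, -0.082 after scaling to the median of genes in all libraries and -0.50 against other genes only. Core genes higher in library 8 numbered 69 to 73. No paired analysis was possible because there is 1 group. Depth, which is unknown, limits what the lower paralogs show, since 0 does not show absence.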

Other observations

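Ribosomal protein genes of the fly carry small nucleolar RNAs, guides of ribosomal RNA modification, in their introns. In the annotation 27 members, all of the core set, span 73 small nucleolar RNA genes on their own strand, with 14 in RpS5a and 7 in RpS7. The 27 host genes had a median level of 1826 FPKM and a median SD of 0.30, and the 47 other core genes 1827 FPKM and 0.29; these differences were not tested. Exons of 27 core genes overlap those of another gene on either strand, and the 47 core genes without any such overlap had a median level of 1667 FPKM and a median SD of 0.30.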
